A study of Mus musculus with 3 samples.

Results

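The genes described here are 9 of the 56833 rows of a table of mouse genes: the cadherins Cdh11, Cdh2 and Cdh13, the catenins Ctnna1, Ctnnb1, Ctnnd1 and Jup, and the connexins Gja1 and Gjc1. They were taken by name, and all 9 were found. RNA was sequenced in bulk from ankle synovium cells of Efhd1CreER; Ai9 mice, in which a Cre recombinase driven by Efhd1 switches on the tdTomato reporter of the Ai9 line. Cells sorted for tdTomato, which the labels call telocytes, were kept for 24 h on collagen-coated plates. The soft plate had 0.2 kPa, the intermediate plate 8 kPa and the stiff plate 64 kPa, and all 3 groups share genotype, sort and coating. Each stiffness had 1 library, so the differences given have no check by replicates, and stiffness cannot be told apart from the culture it was measured in. The age and number of the animals are not given in the sources used here. The labels give no check of how far the reporter is restricted to one cell type.

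Cadherins are membrane proteins that bind cadherins of a neighbouring cell in the presence of calcium. Inside the cell the tail of a classical cadherin binds p120-catenin (Ctnnd1) and either beta-catenin (Ctnnb1) or its relative plakoglobin (Jup), and these bind alpha-catenin (Ctnna1), which connects the junction to actin. Beta-catenin is also the transcriptional effector of canonical Wnt signalling. Connexins form gap junction channels that pass ions and small molecules between cells. Cdh11 is the cadherin by which synovial fibroblasts adhere to each other, and Gja1 is the main connexin of many mesenchymal cells.

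The libraries held between 25487064 and 28081600 reads. Of the fibroblast markers, all 10 averaged at least 50 normalized counts (the deposited unit, reads divided by a library's size factor). Of 7 telocyte markers 4 did, among them Cd34 and Foxl1, while Efhd1 itself had 10, 5 and 3 reads at 0.2, 8 and 64 kPa. Macrophage markers were present too: the 12 genes summed to 28253 normalized counts at 0.2 kPa, 35022 at 8 kPa and 62481 at 64 kPa, and all 12 were higher at 64 than at 0.2 kPa. Endothelial markers summed to at most 88.2 and epithelial ones to at most 28.7, with no read for Cldn5 or for Krt8, Krt14 and Cldn4. Mural markers summed to 2439, 3372 and 3231, most of it Cspg4, and the 5 of 8 that averaged at least 50 had a median log2 ratio of stiff to soft of 0.36, with Mcam at 0.86, Cspg4 at 0.53, Des at 0.36, Notch3 at -0.05 and Rgs5 at -0.08. Subtraction of a fitted trend over transcript length and GC content put Cspg4 at -0.25 and Notch3 at -0.84, with Mcam at 0.77, Des at 0.19 and Rgs5 at 0.03. The mural genes Abcc9 and Kcnj8 had 13 and 4 reads at 0.2 kPa and 2 and 1 at 64 kPa. Schwann cell markers summed to 194.8, 219.7 and 346.6, where Mbp alone averaged at least 50, with Sox10 at 1, 5 and 1 reads. In bulk RNA, fewer cells of a type and less RNA per cell cannot be told apart, and the part of macrophage, mural or Schwann cell RNA in the results below was not tested.

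Compared per kilobase of transcript, Ctnnb1 was the most abundant of the 9 genes in all 3 libraries and Gja1 came next. Ctnnb1 stood at 5153, 5202 and 4639 normalized counts per kb at 0.2, 8 and 64 kPa. Gja1 stood at 4264, 4177 and 3659. In the soft library Cdh11 and then Ctnna1 followed, at 1296 and 979 per kb. In the stiff library the order of that pair was the opposite, at 826 for Cdh11 and 1394 for Ctnna1. Cdh2 and Cdh13 followed, at 300 and 169.3 per kb in the soft and 414 and 262.6 in the stiff library. The 3 scarcest members also stood in opposite orders at the ends of the range. In the soft library Gjc1 had 94.6, Ctnnd1 76.7 and Jup 73.3 normalized counts per kb, and in the stiff library Jup had 147.5, Ctnnd1 100.9 and Gjc1 77.7. No spread between cultures is known for any of these orders.

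**Figure D1:**
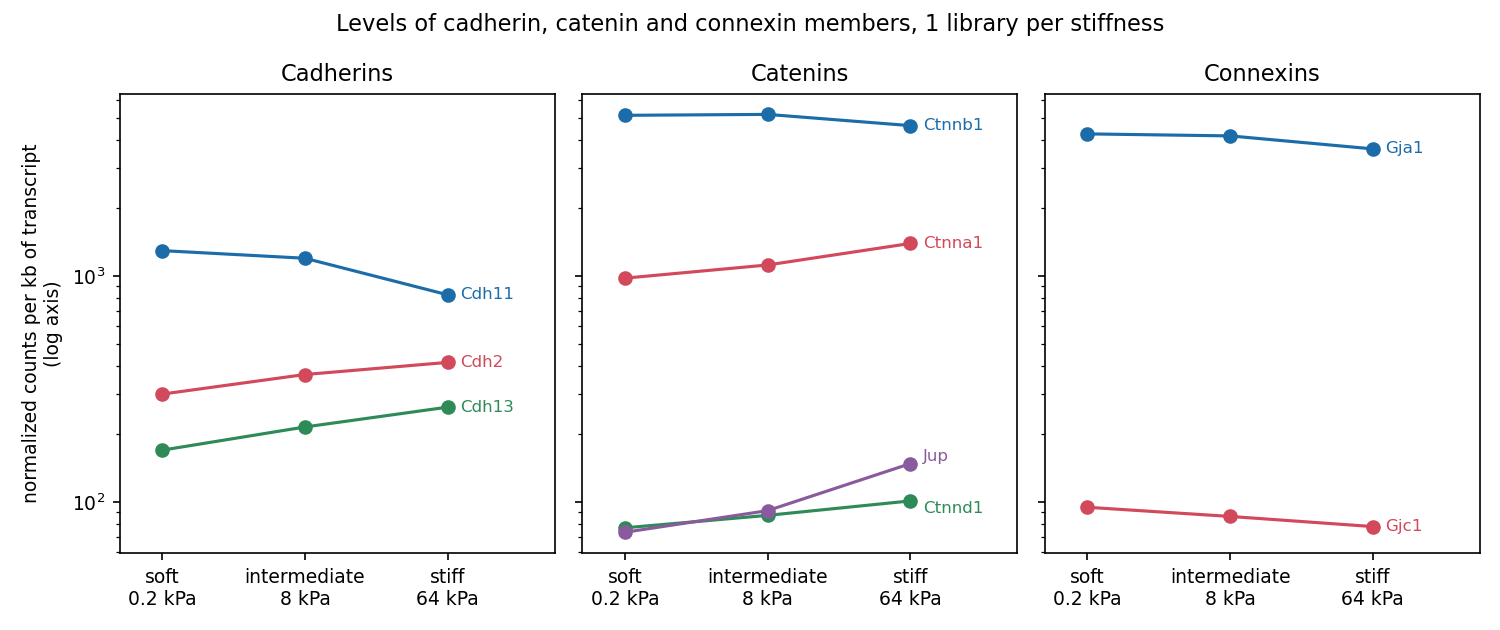
Normalized counts per kilobase of canonical transcript (log axis) of the 9 genes at 0.2, 8 and 64 kPa, 1 point per library, with no error bars because there was 1 library per stiffness. The lines of 5 genes go up at each step, and Cdh11, Gja1 and Gjc1 go down at each step.

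Between the stiff and the soft library 5 members were higher and 4 lower. Jup was 2.01-fold higher and Cdh11 1.57-fold lower, and Ctnnb1 and Gja1, the most abundant, were lower by 1.11-fold and 1.17-fold. Log2 ratios were taken from the normalized counts with a pseudocount of 1, and a gene was counted as past the fold threshold at a log2 ratio of 0.5 in size, provided its mean over the libraries was 50 or more, which all 9 reached. In this comparison 4 of 9 members were past it: Jup, Cdh13 and Ctnna1 higher and Cdh11 lower. Of the 11873 genes with that mean, 15.6% were past it, 11.8% higher and 3.77% lower. At a log2 ratio of 1 only Jup remained among the members, against 3.6% of all genes. Jup passed 1 narrowly, at 1.007, and lay under it with a pseudocount of 10 (0.98), with scaling by total reads (0.95) or the upper quartile (0.92) and with the length and GC trend subtracted (0.82). At 0.25 there were 7, against 38.9%. The median log2 ratio of the 9 members was 0.40, beside 0.005 over the 11873 genes. The 95% counting intervals excluded 0 for all 9 members. They did so for many other genes, lying above 0 for 31.3% and below 0 for 25.9% of the table, since they hold counting error and no difference between cultures.

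For 7 members the intermediate value was nearer to the soft than to the stiff one on the log2 scale. For Cdh2 and Cdh13, with 61.7% and 53.9% of their change in the first step, it was nearer to the stiff one. The share of all genes with either pattern was not counted, so these counts describe the members and do not set them apart. In intermediate against soft no member was past the fold threshold, against 4.6% of all genes, and the counting intervals of Ctnnb1 and Gjc1 spanned 0, as did those of 64.7% of genes. At a log2 ratio of 0.25, 3 members were past it, against 18.3%. The median over the members was 0.18, beside 0.01 over all genes. Between stiff and intermediate, Jup and Cdh11 were past the threshold, 1 higher against 5.42% of genes and 1 lower against 3.42% (8.84% in either direction). At 0.25 there were 4 members against 28.7% of genes, and at 1 there were 0 against 1.25%. This comparison had a member median of 0.18 beside 0.006 over all genes. Of the members, 5 were higher at both steps whatever the size, a pattern shown by 30.2% of genes, and 3 were lower at both steps, against 25.6% of genes. The 3 comparisons share libraries with each other, so they are not independent of one another.

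**Figure D2:**
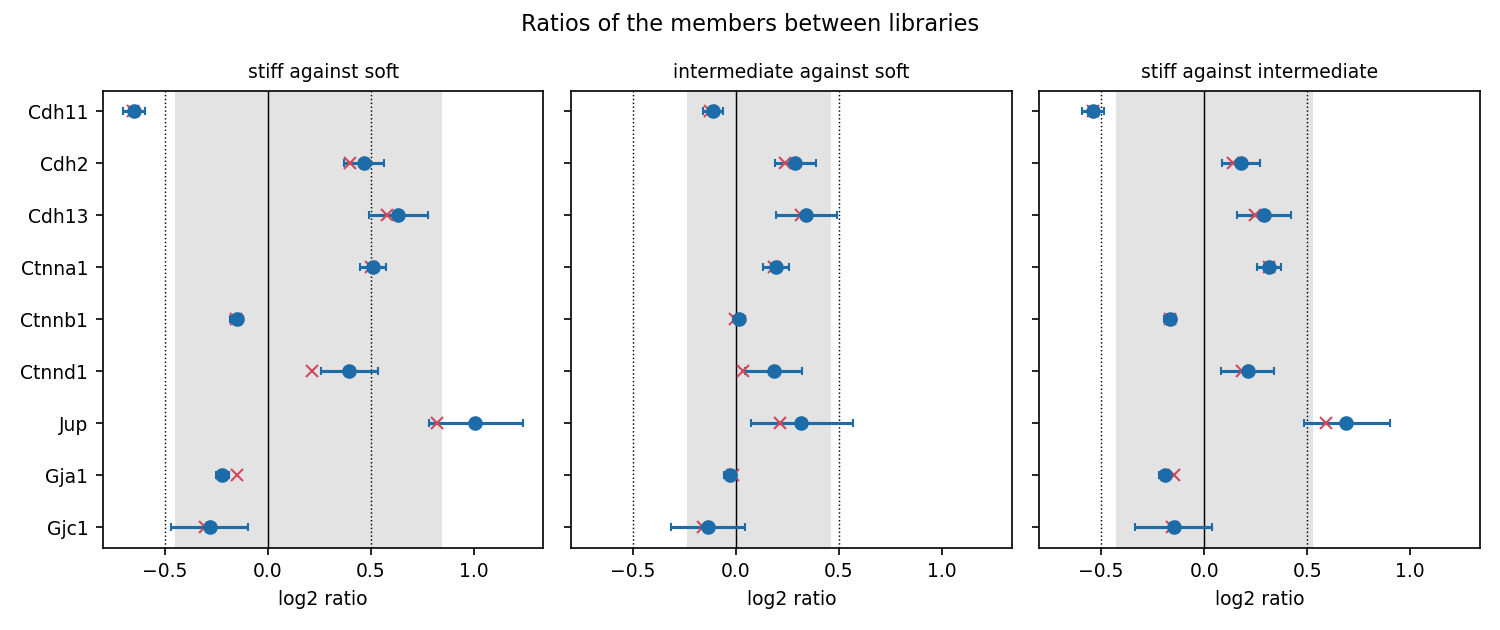
Log2 ratios of the 9 genes in the 3 comparisons. Circles with bars are the ratios with 95% counting intervals, crosses the same ratios less a fitted trend over length and GC content of the transcripts, grey bands the central 90% of 11873 genes, and dotted lines the fold threshold. By the circles, Cdh11 lies below the band and Jup above it in stiff against soft and in stiff against intermediate, while the cross of Jup in stiff against soft, at 0.82, is inside the band, which ends at 0.84.

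Among the cadherins, Cdh11 was lower on the stiff plate while Cdh2 and Cdh13 were higher. Cdh11 encodes cadherin-11, a type II classical cadherin of mesenchymal cells, and is found on chromosome 8 (GRCm39, 103358726 to 103512687, minus strand, 13 exons in the canonical transcript). It had 7320 normalized counts at 0.2 kPa, 6772 at 8 kPa and 4666 at 64 kPa. The soft and intermediate libraries were close, and the stiff library stood apart below both. The stiff to soft log2 ratio was -0.65 (counting interval -0.70 to -0.60), and 17.3% of that difference fell in the step from soft to intermediate. Only 1.94% of the 11873 genes had a lower ratio. Cdh11 shares 1174 of the 5648 bases of its transcript, at 95% identity or more, with 12 other annotated genes, of which 7 are in the table. These 7 summed to 196.8, 196.1 and 188.7 normalized counts at 0.2, 8 and 64 kPa, so their level was low and nearly equal across stiffness.

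Cdh2 encodes N-cadherin, a type I classical cadherin, and lies on chromosome 18. Its level was 1476 normalized counts at 0.2 kPa, 1802 at 8 kPa and 2040 at 64 kPa, a steady order with no library standing apart. The stiff to soft log2 ratio was 0.47 (counting interval 0.37 to 0.57), just under the threshold. Cdh13 encodes T-cadherin, which is held to the membrane by a lipid anchor and has no cytoplasmic tail to bind catenins. The gene spans chromosome 8 from 119010328 to 120051660 on the plus strand and has 14 exons. Cdh13 had 665 normalized counts at 0.2 kPa, 843 at 8 kPa and 1032 at 64 kPa, again in the order of stiffness. Its log2 ratio of stiff to soft was 0.63 (0.49 to 0.78), with steps of 0.34 and 0.29. Neither transcript shares 100 bases or more at 95% identity with another gene.

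The make-up of the cadherin transcripts differed between the plates beyond counting error. Among the reads of 23 Cdh genes, Cdh11 took 74.2% in the soft (exact 95% Clopper-Pearson interval 73.3 to 75.1), 69.0% in the intermediate (68.1 to 69.9) and 57.9% in the stiff library (56.8 to 59.0). Cdh2 took 14.96%, 18.4% and 25.3%, and Cdh13 6.74%, 8.59% and 12.8%. Per kilobase, Cdh11 stood at 4.32 times Cdh2 in the soft, 3.27 times in the intermediate and 1.99 times in the stiff library. The summed cadherin level was 1873, 1882 and 1585 normalized counts per kb, so it was lowest in the stiff library, where Cdh11 was lowest. The other 20 cadherins of the list added little, and only Cdh17 among them had a mean of at least 50. Cdh17, a cadherin known from intestinal epithelium, had 229.6, 215.9 and 131.3 normalized counts, with a log2 ratio of stiff to soft of -0.80 (-1.13 to -0.49). Cdh5, the endothelial cadherin, had 5, 3 and 0 reads, where a count of 0 allows up to 3.

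**Figure D3:**
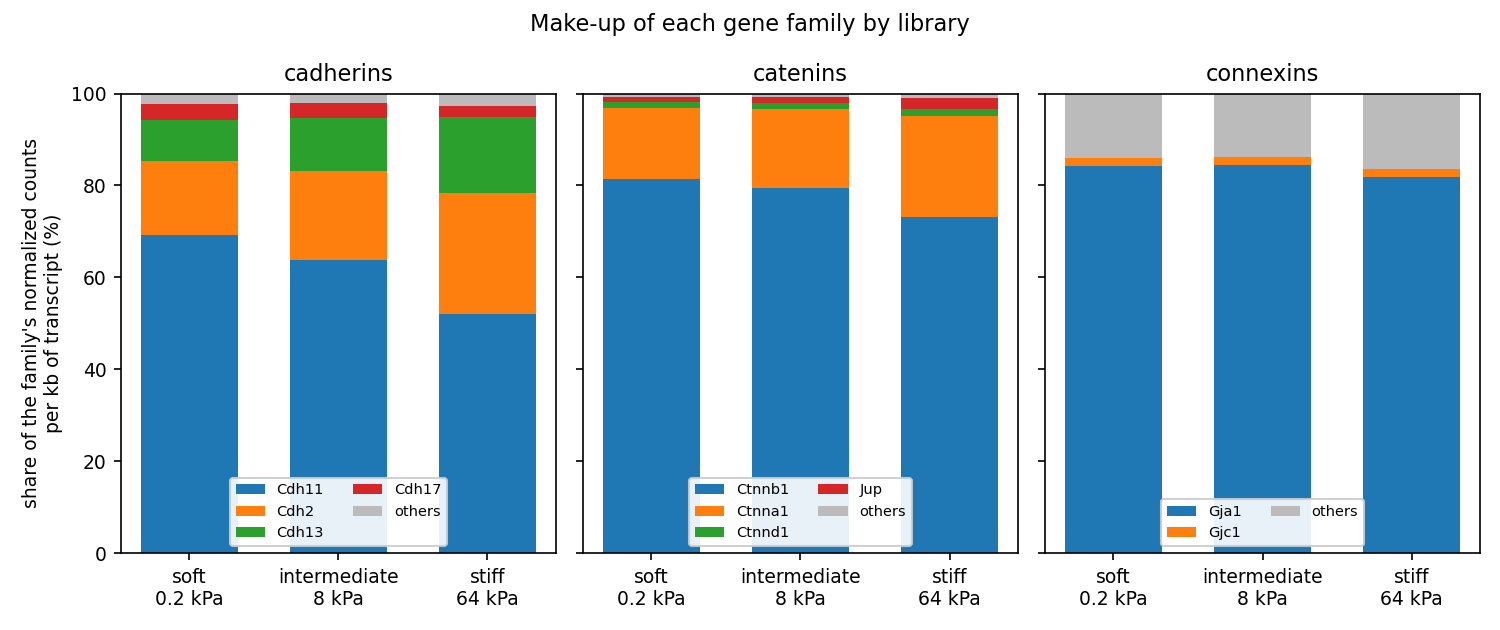
Share (%) of each family's normalized counts per kilobase held by a few named genes in the soft, intermediate and stiff library, for 23 cadherin, 8 catenin and 20 connexin genes, with the remaining genes in grey. The Cdh11 share goes from 69.2% to 63.7% to 52.1%, while that of Gja1 stays between 81.8% and 84.3%.

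Among the catenins, the alpha-catenin gene, p120-catenin and plakoglobin were higher on the stiff plate, and beta-catenin was slightly lower. Ctnnb1 is found on chromosome 9 (120757422 to 120789579, plus strand, 15 exons). It had 18767 normalized counts at 0.2 kPa, 18945 at 8 kPa and 16895 at 64 kPa. The soft and intermediate values differed by less than counting error, at a log2 ratio of 0.01 (-0.02 to 0.04). Its sign in this step was negative in 3 of the 7 other settings tried, 2 scalings and the removal of the length and GC trend, with values of -0.02 to -0.004. The stiff library was lower, with a log2 ratio to soft of -0.15 (-0.18 to -0.12). Ulk4 lies on the opposite strand across 2135 exonic bases of Ctnnb1, and whether counting used strand is not given in the sources used here. Ulk4 had 98.4, 98.0 and 64.6 normalized counts. If strand was ignored and reads in exons of both genes went to neither, the Ctnnb1 counts lack them, whatever the level of Ulk4. To that extent the level of Ctnnb1 per kilobase, its share among catenins and its ratio to Jup are uncertain.

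Ctnna1, on chromosome 18, encodes alpha-E-catenin, the actin-binding partner in the complex. It had 3658 normalized counts at 0.2 kPa, 4184 at 8 kPa and 5211 at 64 kPa. These values follow the order of stiffness, with the larger gap at the second step. The stiff to soft log2 ratio was 0.51 (0.45 to 0.57). It lay at the threshold: scaling by total reads gave 0.46, by the upper quartile 0.42, and subtraction of the length and GC trend 0.499, in each case just under 0.5.

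Ctnnd1 encodes p120-catenin, which binds the membrane-near part of the cadherin tail and keeps cadherins at the surface. It is found on chromosome 2 (84425959 to 84489326, minus strand, 18 exons), and had 790 normalized counts at 0.2 kPa, 897 at 8 kPa and 1040 at 64 kPa. The stiff to soft log2 ratio was 0.40 (0.26 to 0.53). With the length and GC trend subtracted it was 0.21, and in intermediate against soft it went from 0.18 to 0.04. The gene model Gm28635 overlaps Ctnnd1 on the same strand across 4484 exonic bases and is listed at 0 in all 3 libraries. How reads in such shared exons were counted is not given in the sources used here. If they went to neither gene, the Ctnnd1 counts lack them, so its level per kilobase and its place among the 3 scarcest members are uncertain.

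Jup encodes plakoglobin, also called gamma-catenin, which can take the place of beta-catenin on a cadherin tail and is also a desmosome protein. It is found on chromosome 11 (100259784 to 100291103, minus strand, 14 exons). Jup was covered by 236 reads at 0.2 kPa, 320 at 8 kPa and 475 at 64 kPa, or 242 normalized counts, 302 and 487. The stiff library stood apart above the other pair. The stiff to soft log2 ratio was 1.01 (0.78 to 1.24), and 96.9% of the 11873 genes had a lower one. With the length and GC trend subtracted it was 0.82. Its steps were 0.32 (0.07 to 0.57) from soft to intermediate and 0.69 (0.48 to 0.90) from intermediate to stiff. Per kilobase, Ctnnb1 stood at 70.3 times Jup in the soft, 56.9 times in the intermediate and 31.4 times in the stiff library, so plakoglobin remained the far scarcer of these relatives. The macrophage markers, with a median log2 ratio of 1.25 over the 11 that averaged at least 50, were higher in the same library as Jup. Their part in the Jup ratio was not tested.

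Among the reads of 8 catenin genes, Ctnnb1 took 79.3% in the soft (78.8 to 79.8), 77.2% in the intermediate (76.7 to 77.7) and 70.6% in the stiff library (70.1 to 71.2). Ctnna1 took 15.5%, 17.0% and 21.8%, Ctnnd1 3.34%, 3.66% and 4.35%, and Jup 1.02%, 1.23% and 2.04%. Each of these 3 thus had its largest share in the stiff library. The summed level per kilobase was 6329, 6549 and 6346 normalized counts. It was nearly the same in the soft and stiff libraries while the shares differed. Of the other catenins, Ctnna2 and Ctnna3, the neuronal and cardiac alpha-catenins, had no read.

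Windows from the RefSeq promoter table of build GRCm38.p6 are described for 4 members, Ctnnb1, Ctnnd1, Jup and Gja1. No window was examined for the other members, the catenin Ctnna1 among them, so nothing is said of their promoters. The windows of Ctnnb1, Ctnnd1 and Jup are shown because these catenins bind in one complex and yet stood on both sides of 0. Each is the 250 bases before the annotated start, written 5′ to 3′ on the gene's strand, with capitals for any match on either strand to 1 of 7 motifs. The GC box was searched as GGGCGG and the CCAAT box as named. The TATA box, a core promoter element, was searched as TATAAA. The sequence of the AP-1 factors (Fos and Jun) was searched as TGANTCA. For TEAD, the partner of YAP and TAZ, the letters were GGAATG. For the E-box read by Snail and Zeb factors the letters were CAGGTG. The CArG box of SRF was the last, and no match of 1 motif overlapped one of another in the windows shown. Where a gene has 2 windows in the table, the one farther upstream is shown. Ctnnb1 is at chr9:120933150-120933399 on the plus strand, Ctnnd1 at chr2:84658978-84659227 and Jup at chr11:100397791-100398040, both on the minus strand.
Ctnnb1: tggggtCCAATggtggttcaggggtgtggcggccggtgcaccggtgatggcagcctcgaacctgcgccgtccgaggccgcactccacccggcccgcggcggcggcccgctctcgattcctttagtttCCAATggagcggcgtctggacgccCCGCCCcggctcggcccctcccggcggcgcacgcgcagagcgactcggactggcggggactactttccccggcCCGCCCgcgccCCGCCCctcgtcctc
Ctnnd1: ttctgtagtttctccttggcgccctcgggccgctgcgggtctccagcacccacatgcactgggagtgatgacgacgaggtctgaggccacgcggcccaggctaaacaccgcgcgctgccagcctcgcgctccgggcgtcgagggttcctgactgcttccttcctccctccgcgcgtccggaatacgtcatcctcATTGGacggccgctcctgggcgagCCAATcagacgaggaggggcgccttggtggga
Jup: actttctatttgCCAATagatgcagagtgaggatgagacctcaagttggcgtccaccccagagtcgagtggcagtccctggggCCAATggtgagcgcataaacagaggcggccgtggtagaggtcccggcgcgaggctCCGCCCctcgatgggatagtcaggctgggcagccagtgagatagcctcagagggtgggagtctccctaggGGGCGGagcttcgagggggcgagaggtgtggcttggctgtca
The 3 windows shown were richer in G and C than the median of 52.4% over 32851 such windows, at 74.8% for Ctnnb1, 66.8% for Ctnnd1 and 62% for Jup. CG dinucleotides numbered 35, 26 and 13. The CCAAT box had 2 matches in each of the 3, and 33.8% of all windows hold at least 1. The GC box had 3 matches in Ctnnb1 and 2 in Jup, against 32.7% of windows with a match. None of the 3 windows shown held the letters of the CArG box (1.47% of windows), the TEAD site (12.6%), the AP-1 site (6.75%), the Snail and Zeb E-box (17.2%) or the TATA box (12.4%). The second windows, not shown, differed in this. That of Ctnnb1 starts at 120933328 and had 74.4% G and C, 2 GC box matches and 1 TATA box match, 120 bases before the start. That of Ctnnd1 starts at 84650741 and had 40% G and C, below the median, with 3 CG dinucleotides, 2 CCAAT box matches and 1 TATA box match, 156 bases before the start. These matches are descriptions of the letters and say nothing of binding.

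Both connexins were lower in the stiff library, by small amounts. Gja1 encodes connexin 43 and is found on chromosome 10 (56253241 to 56278609, plus strand, 2 exons). It had 20039 normalized counts at 0.2 kPa, 19633 at 8 kPa and 17198 at 64 kPa. Its soft and intermediate values were close, with a log2 ratio of -0.03 (-0.06 to -0.001), and the stiff value was lower than the soft one, at a log2 ratio of -0.22 (-0.25 to -0.19). Subtraction of the length and GC trend gave -0.15. The lncRNA gene Gm68148 lies on the opposite strand across 195 exonic bases of Gja1, and its level was not analysed here. The RefSeq window of Gja1, at chr10:56377050-56377299 on the plus strand of GRCm38.p6, is shown with the same marking.
Gja1: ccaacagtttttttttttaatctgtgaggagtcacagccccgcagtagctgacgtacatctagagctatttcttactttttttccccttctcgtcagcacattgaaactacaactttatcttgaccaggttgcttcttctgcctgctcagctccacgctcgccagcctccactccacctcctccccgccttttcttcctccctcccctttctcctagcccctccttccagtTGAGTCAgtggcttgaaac
At 50% G and C and 6 CG dinucleotides it was poorer in both than the catenin windows printed above. Its 1 match, to the AP-1 site, begins 19 bases before the start.

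Gjc1 encodes connexin 45 and is found on chromosome 11 (102686879 to 102710532, minus strand, 3 exons). It had 533 normalized counts at 0.2 kPa, 485 at 8 kPa and 438 at 64 kPa. These follow the order of stiffness, but each single step had a counting interval that spanned 0. Over the whole range the log2 ratio was -0.28 (-0.47 to -0.10). A stretch of 204 bases in its 5638-base transcript is shared, at 95% identity or more, with parts of transcripts of 93 other genes. The 59 of these in the table summed to 60763, 61239 and 62914 normalized counts, far above Gjc1 itself, so the Gjc1 counts are uncertain to the extent that reads from that stretch were assigned to it. Among the reads of 20 connexin genes, Gja1 took 91.2% in the soft (90.9 to 91.6), 91.4% in the intermediate (91.1 to 91.8) and 90.1% in the stiff library (89.7 to 90.6). Gjc1 took 2.43%, 2.26% and 2.30%. Per kilobase, Gja1 stood at 45.1, 48.5 and 47.1 times Gjc1, so this ratio moved little while those among cadherins and catenins moved more.

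Other genes of the junctions were described from 8 lists, by the genes averaging at least 50 normalized counts. Their counts stand beside the shares of all 11873 genes past the threshold in stiff against soft, 11.8% higher and 3.77% lower. A list whose share is near these says nothing of the list. Of 17 adherens junction adaptors and nectins, 5 were past the threshold higher on the stiff plate and 0 lower, with a median log2 ratio of 0.39 beside 0.005 for all genes. They were Nectin1, an adhesion receptor, at 1.25, Zyx, a tension-sensitive actin adaptor, at 1.13, and Vcl, Magi1 and Tjp1 at 0.83, 0.68 and 0.53. With the length and GC trend subtracted, Nectin1 stood at 0.65 and Zyx at 0.94, while Magi1 at 0.36 and Tjp1 at 0.42 were no longer past it and Wtip, at -0.49 before, was past it at -0.62. Scaling by total reads or by the upper quartile also put Tjp1, at 0.47 and 0.44, under it and Wtip, at -0.55 and -0.58, past it. Of 6 other catenins and relatives, 2 were past the threshold higher and 1 lower, with a median of 0.20. The desmosomal plakophilin Pkp2 was highest, with 150.7, 136.7 and 320 normalized counts and a log2 ratio of stiff to soft of 1.08. Pkp4 stood at 0.62 and Ctnnal1 at -0.51, or -0.49 both with the trend subtracted and with a pseudocount of 10. Of 10 listed desmosomal genes, a list that holds neither Pkp2 nor Jup, none had a mean of at least 50, and they summed to 33.8, 27.3 and 46.1 normalized counts.

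Of 9 protocadherins and giant cadherins, 3 were past the threshold higher and 1 lower, with a median of 0.22. Fat1, a giant cadherin, stood at 1.16, or 0.35 with the length and GC trend subtracted, and Pcdh20 was the lowest tested gene of these junction lists at -2.30. The other genes past it were Pcdh1 at 0.76 and Fat4 at 0.75. With the trend subtracted these were 0.49 and -0.01, so no gene of the list was then past the threshold higher, and Dchs1, at -0.05 before, stood at -0.99. Of 11 genes of the complex that marks beta-catenin for destruction, only Apc, its scaffold, was past the threshold, at 0.72, or 0.48 with the trend subtracted. Csnk1e followed at 0.29, the lowest were Fbxw11 at -0.16 and Csnk1a1 at -0.14, and the median was 0.08. Of 13 genes that process cadherins or repress their transcription, 2 were past the threshold higher and 1 lower, with a median of 0.06. They were the repressor Zeb2 at 0.91, the protease Adam15 at 0.54, and the repressor Snai2 at -0.53, with Twist2 next at -0.43. Subtracting the trend put Adam15 at 0.43 and Snai2 at -0.40, both short of the threshold. Scaling by total reads or the upper quartile put Adam15 at 0.48 or 0.45, and the latter put Twist2 at -0.52. Of 4 other connexins and pannexins none was past it, with a median of 0.09, and Panx1, which forms single-membrane channels, was highest at 0.38.

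**Figure D4:**
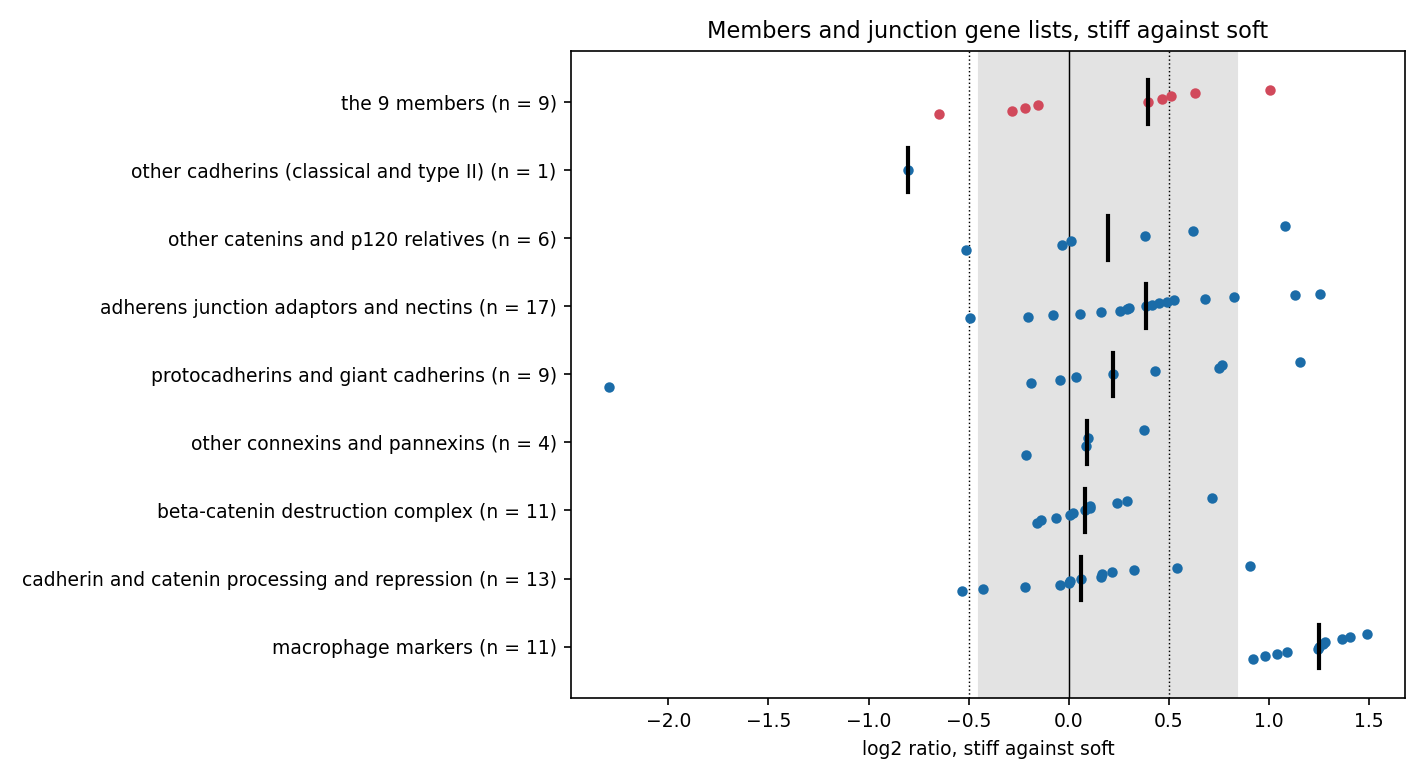
Log2 ratio of stiff to soft for the 9 members (red), the genes of the listed groups averaging at least 50 normalized counts (blue; no desmosomal gene reached it) and the macrophage markers, 1 point per gene, spread vertically only for legibility. Black bars are medians, the grey band is the central 90% of 11873 genes and the dotted lines are the fold threshold. The member median is 0.40 and the macrophage median 1.25.

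For the 3 members with the largest stiff to soft ratios, the nearest genes in the plane of the 2 step ratios were found among 10622 named genes with a mean of at least 100. With 3 libraries many genes lie close to any point. Nearest to Jup were Dlc1, Ubap2 and Spi1, with stiff to soft log2 ratios of 0.97, 1.01 and 1.06, at distances of 0.03 to 0.04. Spi1 is a transcription factor of myeloid cells. Nearest to Cdh11 were Gnb4, Ttc30b and Ccdc34, at -0.63, -0.64 and -0.62. Nearest to Cdh13 were Dst, Per3 and Dnm2, at 0.63, 0.65 and 0.62.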

How the data were processed

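Per the file names, the deposited values are signal in the sense of counts per gene that the authors divided by a DESeq2 size factor, 1 for each library. The submitters' processing notes name bcl2fastq 2.20.0, STAR 2.7.9a, featureCounts of Subread 2.0.1, DESeq2 1.34.0 and build GRCm39. The annotation and the strand setting of counting are not given in the sources used here. The 3 deposited tables were identical and 1 was read. Each column was assigned by its name, which is a sample title.

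In every column 100% of values were whole multiples (within 0.001 reads) of the smallest positive value, which was 1.03 normalized counts at 0.2 kPa, 0.943 at 8 kPa and 1.03 at 64 kPa, and whole reads were recovered by division. A count test needs replicates, so none was run and there are no p-values. The 95% Clopper-Pearson intervals (exact) concern how a gene's reads split between libraries. They hold counting error alone, with no spread between cultures, and reads that are PCR copies of one molecule would make them too narrow. A count of 0 allows 3 reads, about 3.08, 2.83 and 3.08 normalized counts. Levels per kilobase, exons and coordinates use the canonical transcripts of GENCODE vM39 on GRCm39, matched by symbol. Per-kilobase levels depend on that choice of transcript. Sequence similarity was searched with BLAST 2.17.0. The trend over length and GC content was fitted locally and linearly at each gene, down-weighting outliers, from its 300 neighbours in both.

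The members and lists were chosen with earlier results of these data known. Of each list, genes past a log2 ratio of 1 in stiff against soft are named, otherwise the 2 highest and 2 lowest. Others given with a count of at most 5, and Cdh5, were named after their values were seen. Calls and intervals were tested on simulated data with counting error alone: for stiff against soft, 197 of 200 genes changed by 2-fold were called among 11873, with 41 false calls, and 95.28% of the intervals of unchanged genes held 0. Alternatives were pseudocounts of 0.1 and 10, minimum means of 10, 200 and none, 4 scalings, thresholds of 0.25 and 1, the trend subtraction, and shares per kilobase. The tools were matplotlib 3.10.9, scikit-learn 1.9.0, scipy 1.17.1, pandas 2.3.3, numpy 2.4.6 and Python 3.11.15.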

Additional observations from a re-analysis of the deposited data

How the results depend on the processing

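The number of members past the fold threshold depended on the threshold by construction. At a log2 ratio of 1 it was 1 in stiff against soft (3.6% of all genes) and 0 in stiff against intermediate (1.25%). At 0.25 it was 7 in stiff against soft (38.9% of all genes), 3 in intermediate against soft (18.3%) and 4 in stiff against intermediate (28.7%). With 2 of the 4 scalings, and with the length and GC trend removed, 3 members were left in stiff against soft, without Ctnna1. Pseudocounts, minimum means and the other 2 scalings left the counts at 0.5 as they were. The minimum means could not do otherwise, since the lowest member mean was 343.6, that of Jup. Of 189 recomputed log2 ratios of members, 172 stayed inside the counting interval of the main value, and none of a member past the threshold changed sign. The 17 outside came from scaling by total reads (5 of 27), by the upper quartile (8 of 27) and the trend subtraction (4 of 27). The pseudocounts and the other 2 scalings hardly change a member's ratio, so their ratios staying inside was close to fixed in advance. The scalings moved the stiff to soft ratios by -0.09 to -0.0002.

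Taken per kilobase in place of reads, the share of Cdh11 among cadherins was 69.2%, 63.7% and 52.1% in the soft, intermediate and stiff library. That of Ctnnb1 among catenins was 81.4%, 79.4% and 73.1%, and that of Gja1 among connexins 84.2%, 84.3% and 81.8%. These follow from the lengths of the transcripts, and the order of libraries was as for reads.

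No paired analysis was possible because each stiffness had 1 library, and no replicate was left out for the same reason. At 236 to 475 reads, depth limits the statement on Jup most among the members past the threshold.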
